A study of Mus musculus with 6 samples.

Results

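Keratins are the intermediate filament proteins of epithelial cells, and the 47 keratin genes described here were all rows, of 17794 genes in the deposited table, whose symbol is Krt followed by a digit. Matched by gene ID, 46 of them were among the 53 protein-coding keratins of the RefSeq annotation. The other, Krt85, was not among these 53 by ID or by symbol. RNA was sequenced from whole corneas of mice with an experimental dry eye induced by benzalkonium chloride (BAC), a detergent preservative of eye drops that harms the ocular surface. The corneas were taken after 10 days of treatment with vehicle (3 libraries) or with luteolin, a plant flavone (3 libraries), so the dry eye model is common to all 6. Undamaged corneas were not analysed here, and the labels used here give no strain, age, sex or dose and do not say whether each library came from a separate animal, so a p-value covers only how these libraries vary, which may be technical.

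A keratin filament is built from pairs of one type I (acidic) and one type II (basic) chain, and most epithelia express a characteristic pair. In stratified epithelium the basal cells make Krt5 with Krt14. Corneal epithelium adds Krt12, which in the mouse pairs with Krt5, while Krt6a, Krt6b, Krt16 and Krt17 are known from wounded and hyperproliferative epithelium. Krt4 and Krt13 form the pair of wet mucosal surfaces such as conjunctiva, Krt8 and Krt18 that of simple epithelium, and Krt1 and Krt10 that of epidermis.

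The libraries held between 16084855 and 16469699 estimated counts. The tissue label was borne out by corneal genes: Krt12 ranged from 12115 to 26388 TPM (transcript abundance scaled for gene length and library total), and Aldh3a1, a corneal crystallin, from 14303 to 25608 TPM. Of 13838 genes with enough reads to test, 58.9% differed between luteolin and vehicle by edgeR's quasi-likelihood test at a Benjamini-Hochberg adjusted p under 0.05, 28.5% higher and 30.4% lower. Under TMM scaling 51.6% of those calls were decreases. Scaling by library size alone raised this to 63.6% and shifted the median log2 change over all genes from -0.02 to -0.13. Tissue other than epithelium varied within the groups: the summed TPM of 11 skeletal muscle markers was 168, 267 and 50.8 for vehicle 1 to 3, and for luteolin 1 to 3 it was 56.0, 55.2 and 149.

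Some keratins are so alike that reads cannot always be told apart. Estimated counts were not whole (over 0.001 from a whole number) in at least 1 library for 7 keratins: Krt6a in 6 libraries, Krt6b in 5, Krt5, Krt14 and Krt16 in 3 each, and Krt17 and Krt42 in 1 each. In GENCODE vM21 transcripts (GRCm38), the coding sequences of Krt6a and Krt6b were 97.6% identical, with an unbroken identical run of 280 bases, and 49.5% and 50.1% of the 50-base windows of their transcripts also occurred in another gene. Krt14 and Krt16 were 82.9% identical, with a run of 134 bases, and Krt5 shared a run of 140 bases with Krt6a. All 7 keratins with decimals had such shared windows, as did 17 of the 39 others with a coding transcript, 12 of them hair shaft or root sheath keratins. Krt8 shared 514 windows with a transcript named Krt8-ps, yet its counts were whole. Below are the 60 coding bases (817 to 876) where Krt6a and Krt6b differ most, with the 10 differing bases in capitals. They are shown because reads over such places can be given to one of the pair.
Krt6a: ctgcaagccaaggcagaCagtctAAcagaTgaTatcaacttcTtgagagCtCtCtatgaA
Krt6b: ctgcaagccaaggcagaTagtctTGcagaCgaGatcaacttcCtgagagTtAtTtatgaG

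The next lines show the 134-base run common to Krt14 (coding bases 306 to 439) and Krt16 (282 to 415), in capitals, with 20 bases on each side in lower case. A read that lies inside the capitals fits both genes. The counts of Krt14 and Krt16 had decimals in the 3 vehicle libraries and were whole in the 3 luteolin libraries.
Krt14: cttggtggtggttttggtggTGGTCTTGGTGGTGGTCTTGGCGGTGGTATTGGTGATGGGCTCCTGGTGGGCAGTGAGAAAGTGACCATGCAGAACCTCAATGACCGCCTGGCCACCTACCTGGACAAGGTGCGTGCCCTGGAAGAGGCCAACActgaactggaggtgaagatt
Krt16: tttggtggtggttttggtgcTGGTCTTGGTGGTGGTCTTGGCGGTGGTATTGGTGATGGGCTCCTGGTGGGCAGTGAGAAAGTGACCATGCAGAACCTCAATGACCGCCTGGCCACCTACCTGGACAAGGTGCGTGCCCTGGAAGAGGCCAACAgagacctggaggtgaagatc

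Of the 47 keratins, 26 had enough reads to test, a filter that a keratin could also pass through its high group alone. Among them 19 passed the test, 6 higher and 13 lower with luteolin, or 73.1% against 58.9% of all tested genes; 13 of 26 were lower, against 30.4% of all tested genes. Of the 26, Krt20, Krt24 and Krt76 reached the minimum of 10 counts in every vehicle library but not in every luteolin library, so that the filter favoured a decrease, and Krt222 did so through luteolin alone. In a tally made after the values were seen, the other 22 held 6 higher and 10 lower, or 45.5%, against 27.5% of 12779 genes chosen alike. For 19 of the 26 every library of one group lay beyond every library of the other, or 73.1%, against 67.4% of all tested genes. The median log2 change of the 26 was -0.66 and that of all tested genes -0.02, and the median size of the change without its sign was 0.90 and 0.40. A log2 change under -1 was found for 9 called keratins, and for 5 of these it was under -3. Among the 22 there were 6 and 3, and 1 called keratin, Krt78, exceeded 1. Of the 12779 genes chosen alike, 1399 were called with a log2 change under -1, 108 under -3 and 540 over 1. By chain type, 9 of 14 type I keratins were lower and 1, Krt12, higher, while of 12 type II keratins 4 were lower and 5 higher. In whole tissue, fewer cells of a type and less RNA per cell cannot be told apart.

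**Figure D1:**
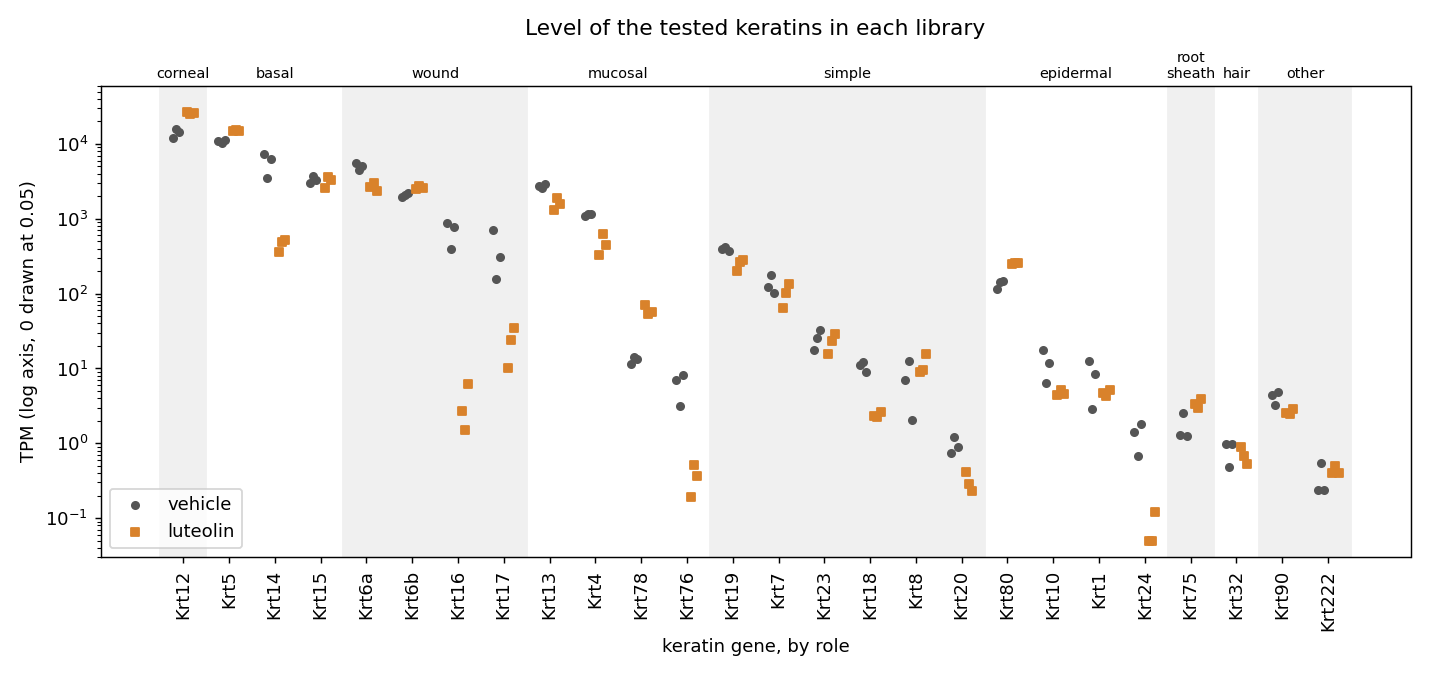
Level of each of the 26 tested keratins in TPM (log axis, values of 0 drawn at 0.05) in the 3 vehicle libraries (circles) and 3 luteolin libraries (squares), grouped by role. Krt12 and Krt5 lead in both groups, and Krt14, Krt16, Krt17, Krt76 and Krt24 show the widest gaps, with luteolin below vehicle.

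Krt12, the keratin of differentiated corneal epithelium, rose. It stood at 12115, 15971 and 14476 TPM in vehicle 1, 2 and 3 and at 26388, 25432 and 25676 TPM in luteolin 1, 2 and 3. The groups did not overlap, and the luteolin libraries lay closer together than the vehicle libraries. On the count scale the log2 change was 0.87 (SE 0.110, edgeR adjusted p = 0.000574). Krt12 made up 30.4% ± 4.79 of all keratin TPM with vehicle and 49.2% ± 1.83 with luteolin (SD, n = 3).

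Among the basal keratins, Krt5 rose, Krt14 fell and Krt15 did not pass. Krt5 (type II, the basal cell chain) stood at 10779, 10183 and 11180 TPM with vehicle and 15042, 15244 and 14701 TPM with luteolin, a log2 change of 0.48 (SE 0.0701, edgeR adjusted p = 0.00103). Krt14, its type I partner in basal cells, stood at 7244, 3529 and 6270 TPM with vehicle and at 361, 491 and 517 TPM with luteolin. Every luteolin library lay below every vehicle library, and vehicle 2 held the lowest of the vehicle values. The log2 change of Krt14 was -3.64 (SE 0.292, edgeR adjusted p = 0.000114). Krt15, a type I chain of basal and progenitor cells, stood at 3001, 3671 and 3250 TPM with vehicle and 2609, 3564 and 3268 TPM with luteolin. Its groups overlapped, with a log2 change of -0.07 (SE 0.135, edgeR adjusted p = 0.689).

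Relative to Krt5, then, the type I chains shifted. The ratio of Krt14 to Krt5 TPM was 0.672, 0.347 and 0.561 with vehicle, against 0.0240, 0.0322 and 0.0352 with luteolin, 17.3-fold apart between the means. The ratio of Krt12 to Krt5 was 1.12, 1.57 and 1.29 with vehicle, against 1.75, 1.67 and 1.75 with luteolin, a gap of 1.30-fold. That of Krt15 to Krt5 went from 0.310 ± 0.0443 to 0.210 ± 0.0320 (SD, n = 3). All 3 ratios were without overlap, and an exact permutation test of 3 against 3 libraries cannot give a p below 0.10, so they are given without one.

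The wound keratins split. Krt16, a type I chain induced by wounding, stood at 876, 396 and 768 TPM with vehicle and at 2.67, 1.51 and 6.17 TPM with luteolin. Every luteolin library lay below every vehicle library, and within each group the values spread widely, with vehicle 2 and luteolin 2 lowest. Its log2 change was -7.61 (SE 0.519, edgeR adjusted p = 7.29e-05), and 23 of all tested genes had a lower value; without luteolin 3 it was 327-fold lower in place of 195-fold. Only 35, 20 and 83 estimated counts were given to Krt16 in luteolin 1, 2 and 3. Krt17, which is induced in hair follicle and injured epithelium, stood at 713, 155 and 306 TPM with vehicle and 10.2, 24.0 and 35.2 TPM with luteolin. Its log2 change was -4.06 (SE 0.659, edgeR adjusted p = 0.00169), and it was 10.1-fold lower without vehicle 1 in place of 16.7-fold.

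The type II wound chains changed little by comparison, and in opposite directions. Krt6a stood at 5513, 4491 and 5136 TPM with vehicle and 2626, 2984 and 2343 TPM with luteolin, a log2 change of -0.93 (SE 0.113, edgeR adjusted p = 0.000490). Krt6b stood at 1980, 2099 and 2196 TPM with vehicle and 2496, 2780 and 2544 TPM with luteolin, a log2 change of 0.32 (SE 0.0799, edgeR adjusted p = 0.0116). Neither gene's groups overlapped. The call of Krt6b did not hold with limma-trend on log2(FPKM + 1) (0.19, adjusted p = 0.0517, and between 0.000253 and 0.0551 across alternatives), and its log2 change was 0.20 with library sizes only. The ratio of Krt6a to Krt6b, chosen after the values were seen, was 2.78, 2.14 and 2.34 with vehicle, against 1.05, 1.07 and 0.921 with luteolin. Since reads were divided between the 2 genes, their sum, which does not depend on that division, is given as well: 7493, 6590 and 7333 TPM with vehicle and 5122, 5764 and 4887 TPM with luteolin, 1.38-fold lower in counts (log2 change -0.46, SE 0.0922, edgeR adjusted p = 0.00423). With Krt14, Krt16, Krt17 and Krt42 summed, the group was 14.1-fold lower (log2 change -3.82, edgeR adjusted p = 0.000109). This sum does not remove all sharing of reads. Of the 570 windows of Krt16 that occurred in another gene, 382 occurred in Gm11597, which is not in the sum.

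Krt16 and Krt17 thus fell further than Krt6a, a type II partner. The ratio of Krt16 to Krt6a TPM was 0.159, 0.0881 and 0.150 with vehicle, against 0.00102, 0.000506 and 0.00263 with luteolin. That of Krt17 to Krt6a was 0.129, 0.0345 and 0.0596 with vehicle, against 0.00387, 0.00804 and 0.0150 with luteolin. In the luteolin libraries Krt6a and Krt6b still made up 24.8% ± 1.18 of type II keratin TPM (SD, n = 3; vehicle 37.0% ± 1.08).

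**Figure D2:**
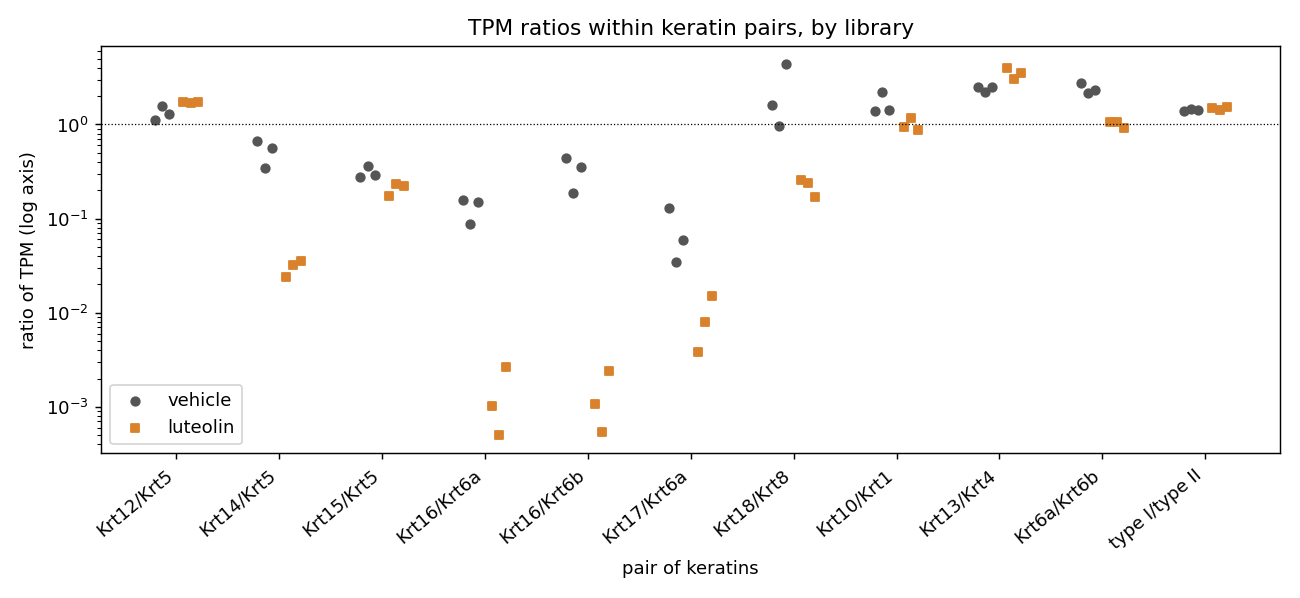
Ratio of the TPM of paired keratins in each library (log axis, dotted line at 1), vehicle as circles and luteolin as squares. The ratios with Krt14, Krt16 or Krt17 on top are lower with luteolin in every library. So are those of Krt15 to Krt5, Krt18 to Krt8, Krt10 to Krt1 and Krt6a to Krt6b. Those of Krt12 to Krt5 and Krt13 to Krt4 are higher, and the ratio of all type I to all type II keratins overlaps between the groups.

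The summed levels of type I and type II chains overlapped between the groups as a ratio, while the chains within each type changed. Summed over all 47 genes, the ratio of type I to type II TPM was 1.38, 1.46 and 1.42 with vehicle, against 1.48, 1.44 and 1.53 with luteolin, which overlapped. Inside type I, Krt14, Krt16 and Krt17 together held 32.5%, 15.2% and 25.9% with vehicle and 1.21%, 1.63% and 1.78% with luteolin. Krt12 held 44.6%, 59.6% and 51.0% of type I TPM with vehicle and 85.4%, 80.2% and 81.8% with luteolin. Within type II, Krt5 went from 55.5% ± 0.591 to 70.9% ± 1.59 (SD, n = 3). All keratins together held 4.68%, 4.51% and 4.84% of the TPM of a vehicle library and 5.18%, 5.38% and 5.19% of a luteolin library, without overlap. The 12 general epithelium markers held no keratin. They summed to between 5208 and 5749 TPM with vehicle and between 6701 and 7261 TPM with luteolin. Of the 12, 10 rose, where 28.5% of all tested genes were higher. Their part in the keratin values was not tested.

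**Figure D3:**
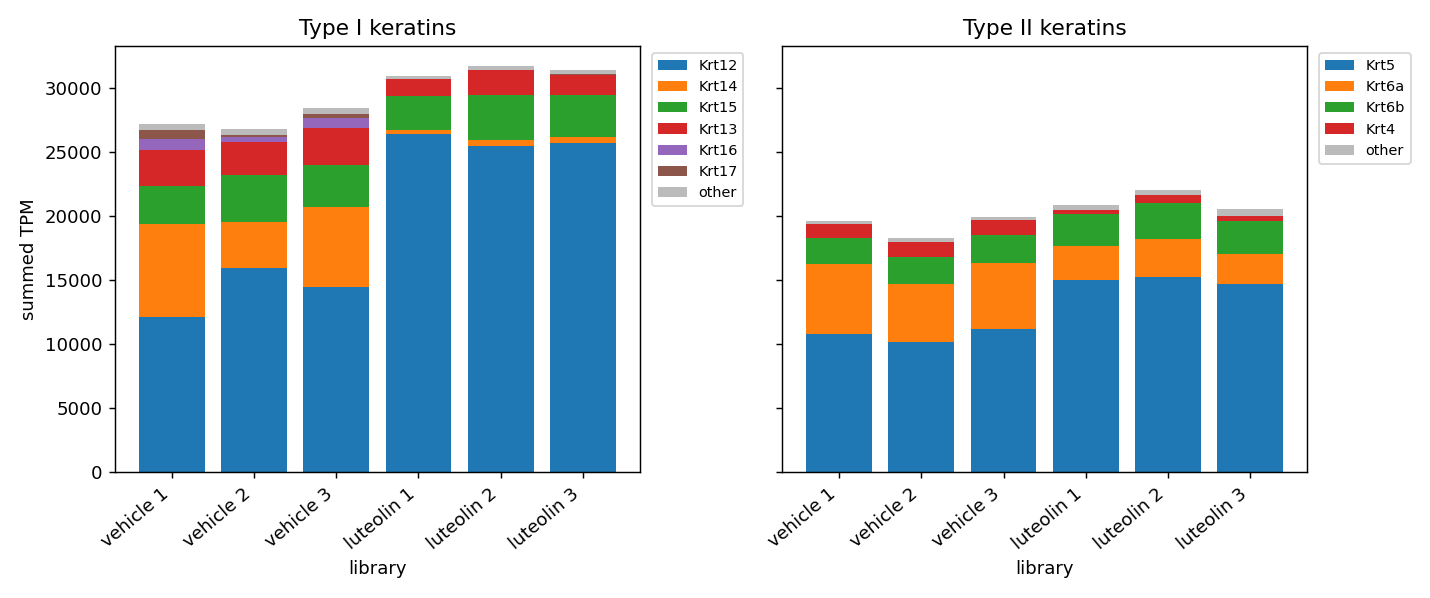
Summed TPM of type I and type II keratins in each library, stacked by gene. In type I, the Krt14, Krt16 and Krt17 segments seen in the vehicle bars shrink to 1.21% to 1.78% in the luteolin bars, where Krt12 holds 80.2% to 85.4%.

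Mucosal keratins fell except for Krt78. Krt13, the type I mucosal chain, stood at 2769, 2603 and 2900 TPM with vehicle and 1310, 1886 and 1577 TPM with luteolin (log2 change -0.78, SE 0.133, edgeR adjusted p = 0.00219). Krt4, its partner, stood at 1098, 1169 and 1163 TPM with vehicle and 332, 624 and 450 TPM with luteolin (log2 change -1.28, SE 0.210, edgeR adjusted p = 0.00177). Both chains were thus lower in every luteolin library, with luteolin 1 lowest, and their ratio went from 2.41 ± 0.163 to 3.49 ± 0.462 (SD, n = 3). Krt76, a type II keratin known from oral mucosa, was rarer and fell further, from 6.94, 3.18 and 8.30 TPM to 0.19, 0.52 and 0.37 TPM (log2 change -4.06, SE 0.491, edgeR adjusted p = 0.000477).

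Krt78, a type II keratin of stratified epithelium, had the largest increase of the family. It stood at 11.4, 14.1 and 13.4 TPM with vehicle and at 69.7, 54.1 and 57.0 TPM with luteolin, a log2 change of 2.22 (SE 0.121, edgeR adjusted p = 4.15e-05). Its coding sequence of 3207 bases was at most 45.8% identical to that of another keratin. That share is over the whole alignment, gaps included, so the length of Krt78 alone lowers it. Its transcript shared no 50-base window with another gene, so its reads were its own by this measure. Of 11 markers of conjunctiva and goblet cells, 4 were not listed, among them the goblet cell mucin Muc5ac. Of the 4 tested, Galnt6 was lower, Fcgbp higher and 2 did not pass, where 28.5% of all tested genes were higher and 30.4% lower. The sum of the 7 listed ran from 20.7 to 33.5 TPM with vehicle and from 23.3 to 36.3 TPM with luteolin, which overlapped.

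Of 6 keratins of simple epithelium 3 fell and 3 did not pass. Krt18, the type I simple chain, stood at 11.2, 12.1 and 8.99 TPM with vehicle and 2.29, 2.27 and 2.65 TPM with luteolin (log2 change -2.15, SE 0.191, edgeR adjusted p = 0.000150). Krt8, its obligate partner in simple epithelium, did not pass, standing at 6.99, 12.7 and 2.07 TPM with vehicle and 8.84, 9.46 and 15.8 TPM with luteolin. Its groups overlapped (log2 change 0.66, SE 0.550, edgeR adjusted p = 0.334), but without vehicle 2 it was higher (1.34, edgeR adjusted p = 0.0456; range 0.0456 to 0.675 across alternatives). The ratio of Krt18 to Krt8 was 1.61, 0.957 and 4.34 with vehicle, against 0.259, 0.240 and 0.168 with luteolin. Krt8 and Krt7 were highest in vehicle 2 and luteolin 3, the libraries of each group with the highest muscle marker sum (267 and 149 TPM); the part of tissue content in these values was not tested.

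Krt19, a type I chain of simple and conjunctival epithelium, fell from 391, 425 and 374 TPM to 203, 266 and 285 TPM (log2 change -0.66, SE 0.133, edgeR adjusted p = 0.00448). Krt20, known from gut and urothelium, was near the limit, with 14, 23 and 17 counts in the vehicle and 7, 5 and 4 in the luteolin libraries (log2 change -1.60, edgeR adjusted p = 0.00937). Krt7, a type II simple chain, ranged from 102 to 177 TPM with vehicle and from 65.1 to 135 TPM with luteolin and did not pass (-0.40, edgeR adjusted p = 0.263). Krt23 did not pass either (-0.18), with 17.8 to 33.1 TPM against 15.8 to 28.6 TPM. The 8 corneal endothelium markers in the table, a simple epithelium within the cornea, summed to 109, 130 and 57.4 TPM with vehicle and 117, 91.8 and 43.8 TPM with luteolin. Among the 8 tested 1 was lower, against 30.4% of all tested genes.

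Keratins of the upper epidermis were mostly rare, with Krt80 the exception. Krt80, a type II chain of differentiating epithelium, stood at 116, 142 and 147 TPM with vehicle and 251, 260 and 260 TPM with luteolin (log2 change 0.92, SE 0.104, edgeR adjusted p = 0.000365). Krt10, the type I chain of suprabasal epidermis, fell from 17.6, 6.37 and 11.98 TPM to 4.43, 5.14 and 4.52 TPM (log2 change -1.18, edgeR adjusted p = 0.0152), but with luteolin 1 left out it missed the threshold at nearly the same size (-1.16, edgeR adjusted p = 0.0548, and between 0.000263 and 0.0548 across alternatives). Krt1, its partner, stood at 12.7, 2.90 and 8.34 TPM with vehicle and 4.70, 4.35 and 5.21 TPM with luteolin, which overlapped (log2 change -0.75, edgeR adjusted p = 0.195). The low value was that of vehicle 2, and without it Krt1 was lower (-1.14, edgeR adjusted p = 0.00186; range 0.00186 to 0.627 across alternatives). Krt24 had 25, 12 and 32 counts with vehicle and 0, 0 and 2 with luteolin, a ratio of 31.4 with an exact 95% interval of 8.38 to 265 that covers counting error only. Without luteolin 3 no count was left in the group, and taking 3 counts for the whole group as the floor, Krt24 was at least 13.9-fold lower. Krt2, Krt9, Krt77 and Krt79, which include the epidermal chains of palm and back skin, held 1 to 25 counts over all 6 libraries and were not tested.

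Hair and root sheath keratins had few reads. Of 12 hair shaft keratins in the table only Krt32, of the hair cuticle, had enough reads, with 8 to 16 counts per library, and it did not pass (-0.23, edgeR adjusted p = 0.640). Of 5 root sheath keratins Krt75, of the companion layer, was tested and was higher, at 1.29, 2.56 and 1.27 TPM with vehicle and 3.36, 3.01 and 3.86 TPM with luteolin (log2 change 1.00, SE 0.296, edgeR adjusted p = 0.0222). That call was lost without vehicle 1 (0.82), vehicle 3 (0.82), luteolin 1 (1.00) or luteolin 3 (0.89), with adjusted p from 0.0545 to 0.0728 (range 0.000976 to 0.0728 across alternatives). Of 12 hair follicle markers, none of them keratins, Gprc5d, Krtap3-1 and Krtap6-1 were not listed. Against 28.5% higher and 30.4% lower among all tested genes, 2 of the 7 tested markers were higher, 1 was lower and 4 did not pass. The higher ones were Dlx3 (3.12-fold) and Tchh (4.38-fold), and the lower one Padi3 (16.1-fold). The list summed to between 49.3 and 58.8 TPM with vehicle and between 51.1 and 63.4 TPM with luteolin. Most of each sum was S100a3, which ranged from 40.6 to 52.9 TPM over the libraries, so the sum says little of the other markers. The part of hair follicle in the Krt75 value was not tested. Of keratins outside these groups, Krt90 fell from 4.14 ± 0.833 to 2.64 ± 0.231 TPM (SD, n = 3; log2 change -0.65, edgeR adjusted p = 0.0276), a call lost without vehicle 1 (-0.63), vehicle 3 (-0.54), luteolin 1 (-0.63) or luteolin 2 (-0.63), where edgeR's adjusted p ran from 0.0757 to 0.0816 (0.00678 to 0.0816 across alternatives). Krt222 did not pass (0.33). Krt42 had 28, 8 and 17 counts with vehicle and 1, 2 and 0 with luteolin, under the filter. Pooled over each group this was a ratio of 16.1, with an exact 95% interval of 5.22 to 80.5 that covers counting error only. The 21 untested keratins together held 271 counts over all 6 libraries, from 1 to 56 each, and none exceeded 1.85 TPM.

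**Figure D4:**
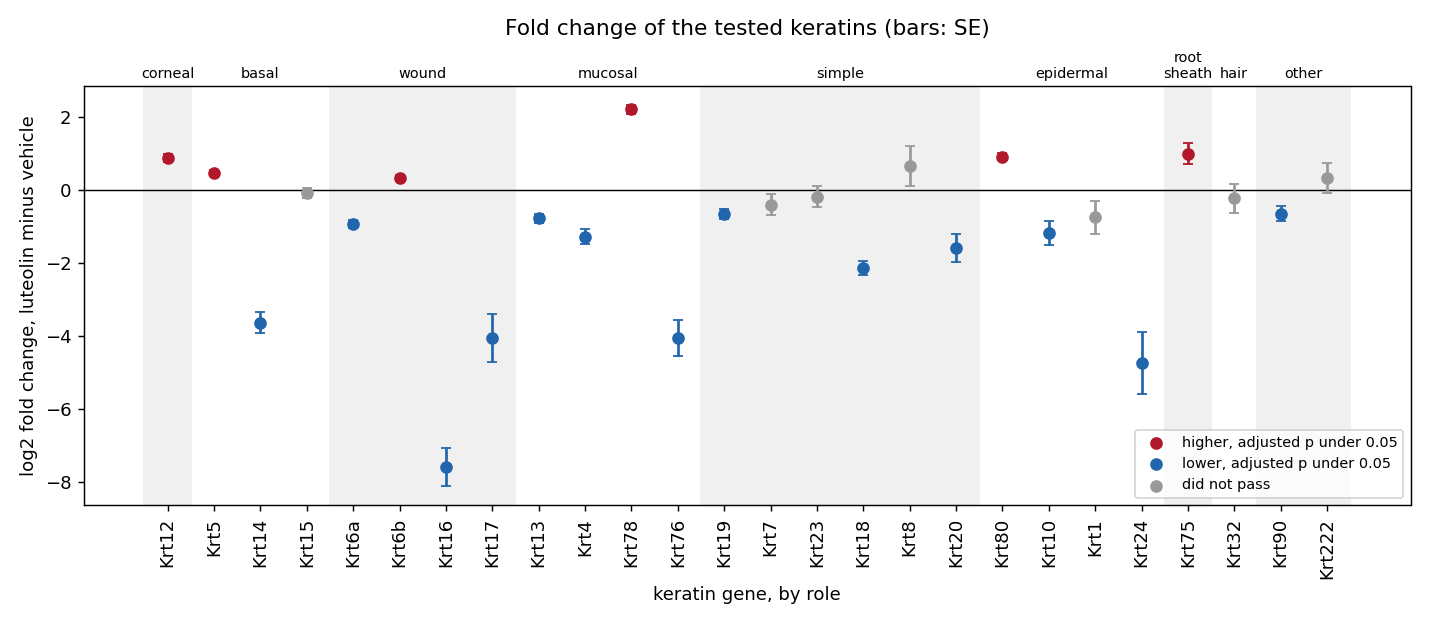
Log2 fold change (luteolin minus vehicle, edgeR on counts) of the 26 tested keratins with SE bars, ordered by role; red passed and higher, blue passed and lower, grey did not pass. Krt16 is the lowest at -7.61 and Krt78 the highest at 2.22, and the basal, wound, mucosal and epidermal groups each hold both directions.

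The vehicle libraries differed among themselves. In vehicle 2, 8 of the 26 tested keratins were over 1.5-fold below both other vehicle libraries: Krt1, Krt10, Krt14, Krt16, Krt17, Krt24, Krt32 and Krt76. Vehicle 3 stood so for Krt8 and vehicle 1 for none. By the same measure vehicle 2 was above both others for Krt8, Krt75 and Krt222, and vehicle 1 for Krt1 and Krt17. Among the luteolin libraries, luteolin 1 was low for Krt7, Krt17 and Krt76, luteolin 2 low for Krt16, and luteolin 3 high for Krt8, Krt16 and Krt24. Without vehicle 2, 7 of 27 tested keratins were higher and 15 lower. Without any other single library 5 or 6 were higher and 12 to 14 lower, of 27 or 28 tested. The filter was run again each time, so these counts include keratins outside the 26. Markers of lid epidermis, skin that a dissected cornea could carry, were read beside these keratins. Of 12 such markers 5 were not listed, and Lor and Flg were at 0.06 TPM or less in every library. Against 28.5% higher and 30.4% lower among all tested genes, 2 of the 4 tested markers were higher, 1 was lower and 1 did not pass. The higher ones were Asprv1 (2.28-fold) and Kprp (10.3-fold), the lower one Sbsn, and Casp14 did not pass. Kprp was rare, at 0.07, 0.07 and 0.25 TPM with vehicle and 1.30, 1.10 and 1.78 TPM with luteolin. Krtdap, which is made by differentiating keratinocytes, stood at 192, 4.78 and 105 TPM with vehicle and at 0.91, 0 and 0.57 TPM with luteolin, and was high in too few libraries to be tested. Sbsn, a suprabasal keratinocyte gene, stood at 66.9, 20.4 and 42.2 TPM with vehicle and 5.33, 5.27 and 7.39 TPM with luteolin. On the count scale its difference was smaller, 1.91-fold lower (log2 change -0.94, edgeR adjusted p = 0.0293). In TPM both were lowest among the vehicle libraries in vehicle 2, as were Krt14, Krt16 and Krt17. The sum of the list was carried by Asprv1, which ranged from 1654 to 4533 TPM over the libraries, and ran the other way, from 1919 to 2282 TPM with vehicle and from 4186 to 4546 TPM with luteolin. Stroma moved within the vehicle group too: Dcn, the decorin of keratocytes, stood at 1270, 3156 and 804 TPM with vehicle. The part of lid skin and of stroma in the keratin values was not tested.

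On the chromosomes the genes lie in a type I and a type II cluster, with Krt18 beside Krt8 at the end of the latter (order from RefSeq, GRCm38.p6; the files use mm9, so no positions of the files are given). Krt14, Krt16 and Krt17 are consecutive in the type I cluster, at places 24 to 26 of 27, and all fell by over 3 on the log2 scale, whereas Krt12 at place 8 rose between Krt10 and Krt20, which fell. In the type II cluster Krt6b, Krt6a and Krt5 are consecutive and rose, fell and rose. Krt76 and Krt4 follow each other and both fell, while Krt78, separated from them by the untested Krt79, rose.

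**Figure D5:**
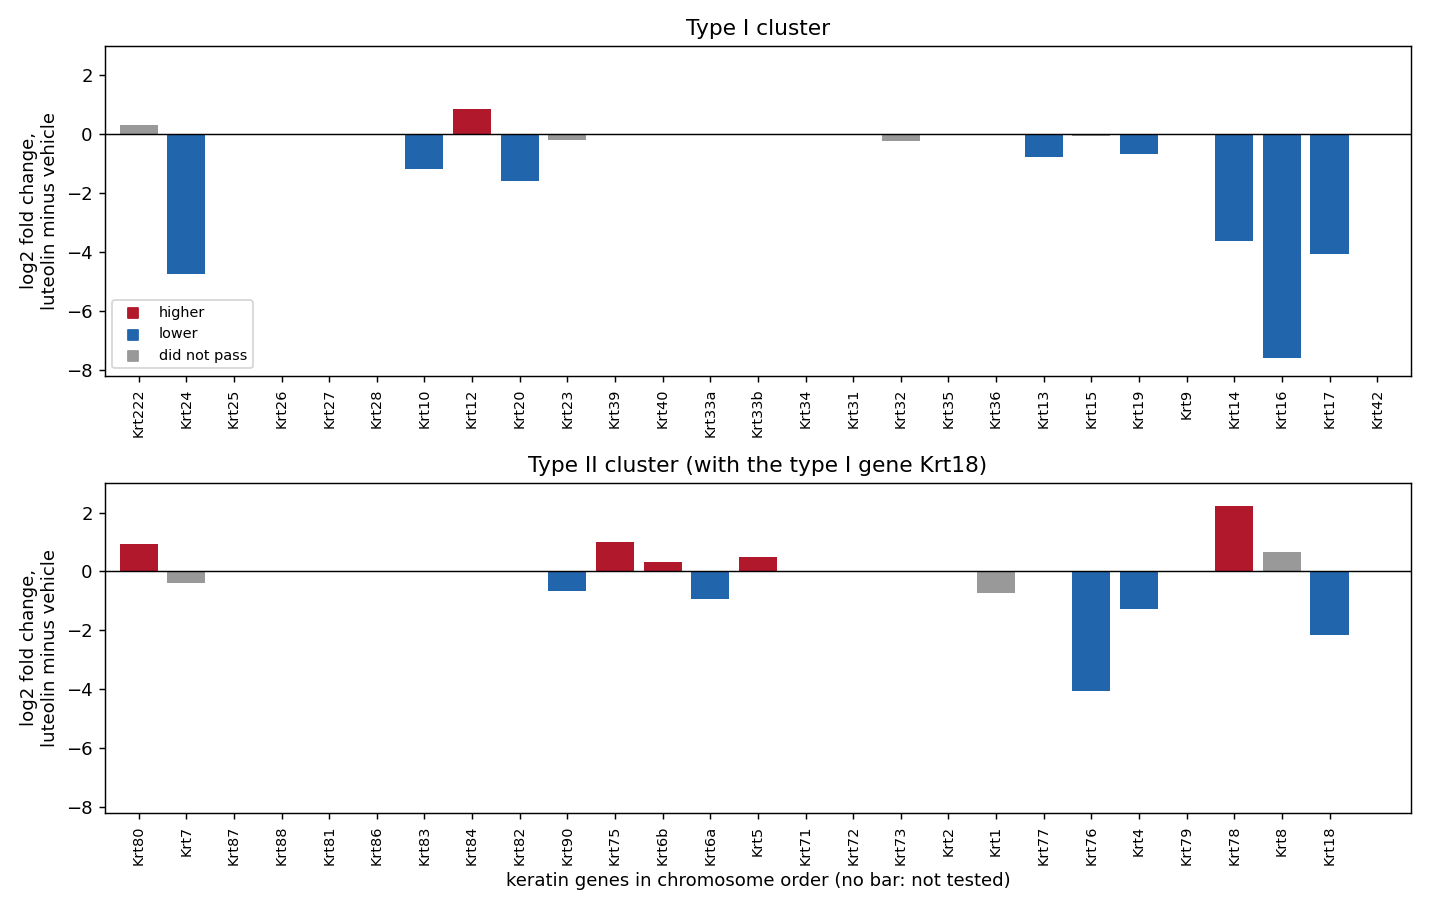
Log2 fold change of each tested keratin in the order of the genes on the chromosome, for the type I cluster (top) and the type II cluster (bottom); genes without a bar were not tested. The run of Krt14, Krt16 and Krt17 is the only place with 3 neighbours that all fell by over 3. Both clusters hold neighbours that went opposite ways, such as Krt10 and Krt12 or Krt6b and Krt6a. Neighbours that went the same way include Krt75 and Krt6b, which rose, and Krt76 and Krt4, which fell.

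RefSeq promoter windows (GRCm38.p6) matched 31 of the 47 keratins by gene ID, with Krt6a, Krt6b, Krt16 and Krt17 among the unmatched. The 250 bases before the start were searched on both strands. A keratin was counted once, as holding a motif if any of its windows held it, whereas the comparison counts single windows. The percentages for keratins and for all genes below thus differ in unit. TATAAA (the TATA box) occurred in 13 of 31 keratins, or 41.9%, against 12.4% of 32851 windows of all genes. TGANTCA (AP-1) occurred in 1, Krt13, or 3.23% against 6.75%; GGGCGG (GC box) in 2, or 6.45% against 32.7%; and CACCC, a core of sites for KLF factors, in 25, or 80.6% against 52.0%. Of the tested keratins with a window, CACCC was in 3 of the 4 that were higher and in all 8 that were lower. A match of letters is a description, not a site, and the window of Krt14 lies at an alternative start. The windows of the 2 leading chains, Krt12 (chr11:99422260-99422509, minus strand) and Krt5 (chr15:101712906-101713155, minus strand), and of the type II keratins with a large decrease and the largest increase, Krt76 (chr15:101892921-101893170, minus strand) and Krt78 (chr15:101954288-101954537, minus strand), are shown with these motifs in capitals.
Krt12: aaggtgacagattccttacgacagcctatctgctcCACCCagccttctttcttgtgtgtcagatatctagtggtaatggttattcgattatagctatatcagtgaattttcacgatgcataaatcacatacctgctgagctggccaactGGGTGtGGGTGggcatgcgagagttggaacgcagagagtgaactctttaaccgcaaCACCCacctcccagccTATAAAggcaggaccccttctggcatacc
Krt5: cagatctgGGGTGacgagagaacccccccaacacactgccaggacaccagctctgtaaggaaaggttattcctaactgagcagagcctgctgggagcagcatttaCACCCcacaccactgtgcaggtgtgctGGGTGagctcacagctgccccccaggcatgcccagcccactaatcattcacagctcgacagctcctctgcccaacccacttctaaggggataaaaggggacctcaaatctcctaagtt
Krt76: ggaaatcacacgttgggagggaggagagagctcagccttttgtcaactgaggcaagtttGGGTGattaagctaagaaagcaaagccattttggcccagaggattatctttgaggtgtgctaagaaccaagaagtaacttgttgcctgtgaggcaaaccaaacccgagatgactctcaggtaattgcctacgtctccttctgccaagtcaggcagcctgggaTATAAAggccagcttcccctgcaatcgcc
Krt78: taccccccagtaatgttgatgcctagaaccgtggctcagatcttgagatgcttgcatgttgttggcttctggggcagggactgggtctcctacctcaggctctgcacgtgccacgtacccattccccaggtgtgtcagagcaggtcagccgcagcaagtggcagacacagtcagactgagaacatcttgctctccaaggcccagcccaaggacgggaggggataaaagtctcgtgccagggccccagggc
Krt12 and Krt76 hold a TATA box close to the start. On either strand Krt12 holds CACCC at 4 places, Krt5 at 3 and Krt76 at 1, and Krt78 holds none of the 4 motifs.

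Lists of genes that work with keratins are read against all tested genes, of which 28.5% were higher and 30.4% lower. Of 14 genes of filament linkers and desmosome plaques 7 rose, 1 fell and 6 did not pass; their median change was 0.30. Evpl, the envoplakin gene, stood at 123, 136 and 144 TPM with vehicle and 289, 266 and 292 TPM with luteolin (log2 change 1.06, SE 0.0847, edgeR adjusted p = 0.000112). Ppl, periplakin, rose by 0.76, Eppk1, epiplakin, by 0.90 and Fam83h, which acts on keratin organisation, by 0.47. Of 10 tested genes of other intermediate filaments 5 fell and 1 rose, with a median of -0.84 against -0.02 for all tested genes. Vim, the vimentin of stromal and immune cells, fell from 437, 540 and 437 TPM to 66.9, 69.7 and 56.0 TPM (log2 change -2.87, SE 0.120, edgeR adjusted p = 2.79e-05), Lmna, a nuclear lamin, by 1.09, Bfsp1 by 1.02 and Nes, nestin, by 0.87. Of 17 tested transcription factors of keratinocytes 12 rose, 1 fell and 4 did not pass (median 0.63), with Grhl1 (1.14), Klf5 (0.83), Tfap2a (0.78) and Pax6 (0.74) having the smallest p.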

How the data were processed

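Whole corneas were flash frozen, RNA was taken with Trizol, and libraries were made with an Illumina TruSeq kit, per the labels' protocols. Bowtie2 2.2.5, RSEM 1.2.12 and genome build mm9 are listed in the submitters' processing notes. Annotation, strand setting and how each tool was used: not given in the sources used here. Antisense or overlapping genes may share reads. The deposited estimated counts are the authors' read counts per gene, not whole in 10.3% to 10.8% of values. TPM (scaled for length and to a common library total) and FPKM (scaled for length and depth) were deposited by the authors beside them, per the file headers. A further 14 columns, of normalized counts and group averages, were not used.

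After rounding, counts went into edgeR 4.0.16 under R 4.3.3 (filterByExpr with minimum count 10 and total 15, TMM, quasi-likelihood test of luteolin minus vehicle without a block, Benjamini-Hochberg over 13838 genes, threshold 0.05). Each SE was taken as the log2 change over the root of its F statistic. The common biological coefficient of variation was 13.8%. The code was tested on simulated data. Levels and ratios are in TPM, and fold changes are on the count scale. The members, role groups, pairs and marker lists were chosen with earlier results of these data known. Every tested keratin is named; from each partner list the 4 tested genes of lowest p are named. Markers of other tissue (Aldh3a1, Muc5ac, Galnt6, Fcgbp, Krtdap, Sbsn, Asprv1, Kprp, Casp14, Dcn, Lor, Flg, Dlx3, Tchh, Padi3, S100a3, Tnni2) were picked from their lists after their values were seen. Alternatives were DESeq2 1.42.0, limma 3.58.1 on FPKM and TPM, other scalings and filters, a replicate block, summed similar keratins, and leaving out each library.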

Additional observations from a re-analysis of the deposited data

How the results depend on the processing

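Over 19 alternatives, 15 of the 19 called keratins kept their direction and call in every one that gave a value; the exceptions were Krt6b, Krt10, Krt75 and Krt90. Of 329 keratin values under settings that kept all libraries, 327 kept direction and side of the threshold, and the other 2 were Krt6b with limma-trend on FPKM (0.19 with either pseudocount). Of 156 values with 1 library left out, 9 lost and 2 gained a call and 4 changed sign, all 4 of keratins that did not pass: Krt15 ranged from -0.18 to 0.05 (0.01 without vehicle 2, 0.05 without luteolin 1) and Krt23 from -0.40 to 0.06 (0.06 without vehicle 3, 0.02 without luteolin 1). The filter of 1 CPM left 22 keratins, 6 higher and 11 lower, and no filter gave 6 and 14. The number of all genes called ran from 6795 to 8493 with a library left out. Log folds of rare keratins shrank with a pseudocount: Krt24 was -0.88, Krt76 -2.06 and Krt20 -0.48 on log2(FPKM + 1), and Krt24 was -2.98 on log2(FPKM + 0.1).

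With the replicate number as a block, 7934 genes and 6 higher and 13 lower keratins passed. Same-numbered libraries did not deviate together (r = -0.15, 0.027 and 0.012 across genes), so the numbers were not taken as pairs. The keratin share in estimated counts was 5.43% with vehicle and 5.76% with luteolin, and in TPM without the 7 keratins whose counts had decimals 2.22% and 3.18%. The difference in log2 type I to type II ratio was 0.06 over all keratins, 0.12 in counts, and 1.27 without those 7, which leaves out Krt5, Krt6a, Krt6b and Krt14. Of the 21 untested keratins 12 held under 10 counts over all 6 libraries, so that depth limits what can be seen of them.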
